A study of Mus musculus with 60 samples.

Results

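The 9 genes described here encode the hepatocyte transcription factors Hnf4a, Foxa1, Foxa2, Foxa3, Cebpa, Cebpb, Onecut1, Prox1 and Nr5a2. They were chosen by name, by matching their Ensembl identifiers to the rows of the 3 deposited count tables, and all 9 were present among the 23440, 23068 and 28773 genes of the tables for dome and suspension cultures, bulk passages and single organoids. The samples were intrahepatic cholangiocyte organoids, which are hollow structures grown from bile duct fragments, of C57BL/6N mice without genetic modification. The labels give an age of 3-4 months, and the methods describe the mice as male. In the first experiment, organoids were kept in Matrigel domes (3 cultures) or moved to shaken suspension cultures with dilute Matrigel (3 cultures). Each of these cultures came from a pool of several mice, and which pool carries which replicate number is not stated. The second experiment followed Sets 1, 3 and 4 in bulk at passage 4 and passage 11, with 2 technical replicates that were summed. In the third, single organoids were picked from suspension cultures. Set 1 (8 organoids) had reached passage 11, Sets 2 and 3 (10 and 5 organoids) passage 3 and Set 4 (12 organoids) passage 4, and 7 further organoids, not kept for the published comparison, were used only in alternatives. Every set was the culture of a single mouse, so passage and mouse cannot be told apart in the single organoids, and P-values there measure the spread between organoids of 1 culture per set.

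In the liver, these factors form a network in which most members bind the regulatory regions of the others and of genes for plasma proteins and metabolic enzymes. FOXA proteins are pioneer factors that open chromatin in the liver lineage, HNF4A is a nuclear receptor needed for the mature hepatocyte program, and C/EBP proteins drive metabolic and acute phase genes. Several members are not restricted to hepatocytes: ONECUT1 (also known as HNF6) and the FOXA proteins also act in bile ducts, PROX1 marks hepatoblasts and lymphatic endothelium, and NR5A2 controls genes of bile acid and steroid metabolism.

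The libraries held 1776490 to 14761853 counts in dome and suspension cultures, 1486347 to 5532630 in the bulk passages after technical replicates were summed, and 1059002 to 11175868 in single organoids. Levels are given as CPM, in which counts are scaled to a common library size with TMM factors, and the 3 tables were scaled separately. At the smallest totals, 1 count was worth 0.563, 0.673 and 0.944 CPM, so levels near 1 CPM rest on single counts. Markers of bile ducts had counts for 21 of 22 listed genes in every group, with a summed level of 7229 to 33710 CPM across libraries. Of 38 hepatocyte products, 19 to 26 had a count in each group, while no count was listed in any group for Ahsg, F9, Serpina1a, Pck1, Gys2 and Hpd. Macrophage markers had counts for 4 or 5 of 10 genes, with none listed for Clec4f, C1qb and Cd5l, and endothelial markers for 5 to 7 of 10, with none listed for Cdh5, Kdr and Clec4g. Summed levels of mesenchymal markers were 0 to 6.04 CPM. As these are bulk samples, fewer cells of a type and less RNA per cell cannot be told apart.

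Of the 9 factors, 7 passed the filter for low counts in the bulk tables and all 9 in the single organoids. Hnf4a (chr2:163506808-163572910, plus strand), Foxa1 (chr12:57540628-57546916, minus strand), Foxa2 (chr2:148042877-148046969, minus strand), Foxa3 (chr7:19013284-19023538, minus strand), Cebpa (chr7:35119293-35121928, plus strand) and Cebpb (chr2:167688915-167690418, plus strand) had at least 3 counts in every library or summed sample, leaving aside the organoids that were not kept. Onecut1 (chr9:74861921-74891781, plus strand) had 1 to 31 counts in the bulk tables and 8 to 142 in single organoids. Prox1 (chr1:190118035-190170714, minus strand) and Nr5a2 (chr1:136842571-136960448, minus strand) had at most 3 counts in 5 of 6 samples of either bulk table. In single organoids, 3 of 35 had no count of Prox1 and 8 had no count of Nr5a2. Coordinates are those of GENCODE M21 on GRCm38, the build of the submitters' processing notes. There, exons of Cebpa, Cebpb and Prox1 overlap those of the opposite-strand genes Gm45091, Tmem189 and Prox1os, and an exon of Onecut1 overlaps Gm20649 on the same strand. The strand setting of the counting was not stated, so counts at these exons can hold reads of the overlapping genes.

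Hnf4a is read from a pair of promoters, and libraries that read the 3′ end of transcripts do not tell the products of both apart. The stretches upstream of both are shown because they hold letters that HNF1 or ONECUT factors are known to bind. For the same reason, 1 of 3 listed Foxa2 promoters is shown, the one with the ONECUT letters, since Onecut1 was called in both bulk comparisons. Sequences are RefSeq promoter windows on GRCm38.p6, each cut to the part without an annotated exon, 5′ to 3′ on the strand of the gene. Capitals mark ATTGAT (an ONECUT site) and GTTAAT (part of an HNF1 site), on either strand. Only exact matches were searched, so stretches that resemble these letters are not marked.
Hnf4a, upstream start, chr2:163506607-163506807: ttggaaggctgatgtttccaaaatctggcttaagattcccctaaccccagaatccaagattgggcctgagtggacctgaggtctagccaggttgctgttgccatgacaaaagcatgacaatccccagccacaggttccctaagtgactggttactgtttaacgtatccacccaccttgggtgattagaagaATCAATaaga
Hnf4a, downstream start, chr2:163546943-163547154: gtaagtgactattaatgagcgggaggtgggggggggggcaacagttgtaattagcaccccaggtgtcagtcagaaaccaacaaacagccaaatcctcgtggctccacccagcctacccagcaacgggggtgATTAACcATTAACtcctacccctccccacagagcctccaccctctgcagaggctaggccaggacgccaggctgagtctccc
Foxa2, chr2:148046970-148047219: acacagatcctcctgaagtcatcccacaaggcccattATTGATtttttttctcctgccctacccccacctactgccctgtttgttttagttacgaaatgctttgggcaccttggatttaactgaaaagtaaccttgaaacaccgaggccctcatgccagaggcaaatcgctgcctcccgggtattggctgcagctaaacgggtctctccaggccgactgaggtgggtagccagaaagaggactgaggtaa
Within the 250 bases upstream of a start, ATTGAT was found in 2 of 14 windows of the 9 genes (Foxa2 and Hnf4a) and in 6.72% of all 32851 windows. GTTAAT was found in 3 of the 14 (Foxa2, Hnf4a and Nr5a2) and in 6.43% of all. The FOX letters TGTTTAC were in 1 of the 14 (Foxa1) and 3.17% of all, and the C/EBP palindrome TTGCGCAA was in none of the 14 and 0.164% of all. These matches describe letters only.

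The first comparison asks whether moving organoids from domes to suspension changes gene expression. Of the 7 factors tested, Foxa3 was higher and Onecut1 lower in domes, against 30.0% of all 12699 genes tested being called (14.9% higher and 15.1% lower). The other 5, Hnf4a, Foxa1, Foxa2, Cebpa and Cebpb, did not reach an adjusted P-value below 0.05. The groups did not overlap for 1 of the 7, Onecut1, compared with 47.4% of all genes.

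Onecut1, a homeobox factor of bile duct and hepatocyte development, was measured at 0.989, 0.730 and 1.10 CPM in domes and at 4.62, 3.54 and 2.13 CPM in suspension. All 3 suspension cultures were above all 3 domes, although the dome values stem from 13, 1 and 2 counts. The fitted log2 fold-change was -1.73 ± 0.50 (SE, n = 3 per group, adjusted P-value 0.0241 in edgeR). The call was lost with counts thinned to the smallest library (0.0972) and without dome 1 (0.124), suspension 1 (0.100) or suspension 2 (0.0690), with the direction kept.

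For Foxa3, a pioneer factor abundant in adult hepatocytes, the domes had 16.9, 63.5 and 64.8 CPM and the suspension cultures 12.6, 17.9 and 18.2 CPM. Domes 2 and 3 stood far above suspension, while dome 1, the library with the most counts, lay within its range. The log2 fold-change was 1.50 ± 0.48 (SE, n = 3 per group, adjusted P-value 0.0490 in edgeR). It was 1.52 with RLE scaling (0.0527), 1.10 with limma-voom (0.106) and 1.13 to 1.61 without any 1 of dome 2, dome 3 and the suspension cultures, none of which was called (0.0958 to 0.181). Without dome 1 it was 1.97.

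Hnf4a was at 72.8, 38.0 and 57.7 CPM in domes and 35.9, 35.9 and 48.7 CPM in suspension, and the groups overlapped. Its log2 fold-change of 0.50 ± 0.25 SE was not called (adjusted P-value 0.151 in edgeR), but without dome 2 it was 0.70 and called (0.0261). The inflammation-linked factor Cebpb had 116, 164 and 183 CPM in domes against 120, 126 and 114 CPM (log2 fold-change 0.36 ± 0.21 SE, adjusted P-value 0.216 in edgeR). Without dome 1, Cebpb was called higher in domes (0.54, 0.0487). Dome 1 thus lay within the range of suspension for Foxa3 and Cebpb and above all other libraries for Hnf4a and Cebpa. Cebpa had 23.7, 10.2 and 14.8 CPM in domes and 13.7, 16.8 and 19.9 CPM in suspension, the dome values spanning the suspension range.

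Foxa1 ranged widely within suspension, with 5.25, 19.6 and 21.3 CPM, compared with 13.2, 23.4 and 20.3 CPM in domes. Foxa2 varied little in suspension, at 29.8, 29.5 and 31.0 CPM, with 21.8, 22.6 and 31.3 CPM in domes. Their log2 fold-changes were 0.21 ± 0.47 and -0.27 ± 0.22 (SE), neither of them called. Prox1 and Nr5a2 had 0 to 13 and 0 to 4 counts per library and were not tested.

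**Figure D1:**
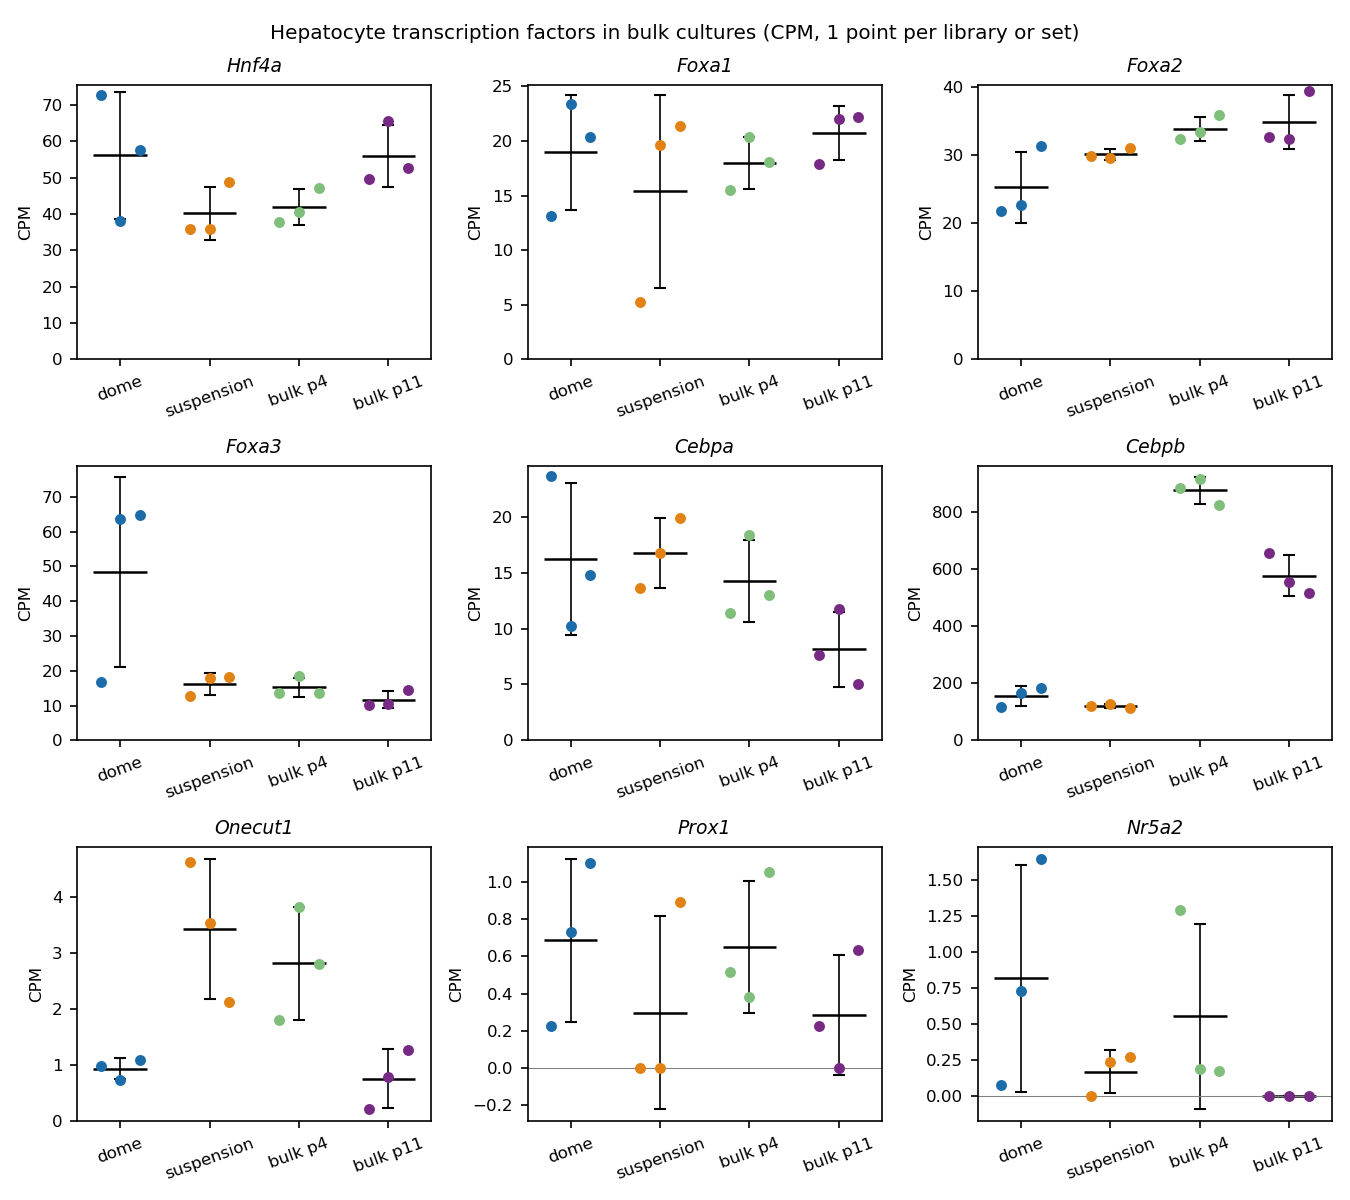
Level of each factor (vertical axis, CPM) in 3 dome and 3 suspension cultures and in Sets 1, 3 and 4 at bulk passage 4 (p4) and passage 11 (p11), with points in order of replicate or set, bars for the mean and whiskers for ± 1 SD. The dome and suspension table and the passage table were scaled separately. Onecut1 does not overlap between domes and suspension or between passages, Hnf4a and Cebpb do not overlap between passages, and dome 1 (16.9 CPM) lies apart from the other domes for Foxa3.

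Among 34 other liver transcription factors and nuclear receptors, 28 were tested, and 7 were higher and 8 lower in domes than in suspension. Their median log2 fold-change was 0.17, compared with -0.04 over all genes. Among those higher in domes were Creb3l3, a hepatic factor of lipid metabolism (10.8 CPM in domes, 0.933 in suspension, log2 fold-change 3.46), and Nr1i2, the xenobiotic receptor PXR (4.98 and 0.901, 2.25). Zbtb20 (5.38 and 45.6, -3.10) and Zhx2 (3.25 and 23.0, -2.89), both zinc finger or homeobox repressors linked to Afp, were lower. Of 17 hepatocyte products tested, 5 were higher and 1 was lower, with a median of 1.52. Examples are Ass1 of the urea cycle (176 CPM in domes and 17.1 CPM in suspension, log2 fold-change 3.38) and Ambp (440 and 104, 2.08). Of 2 genes tested from the bile acid and NR5A2-linked list, Scarb1 was higher in domes (57.9 and 24.1 CPM, 1.24). Ductal genes gave 8 higher and 2 lower of 21, and acute phase and inflammatory genes 5 higher and 4 lower of 14. Cell cycle genes were lower in domes for 18 of 20 (median -1.42), and Cd14 was lower as 1 of 3 macrophage markers tested (190 and 582 CPM). Of 2 endothelial markers and 1 mesenchymal marker tested, none was called. The part of proliferation in the differences of Foxa3 and Onecut1 was not tested.

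The second comparison asks what continued passaging changes in the same cultures, and its directions rest on the passage in the sample labels. The order of these labels was not tested, and if the labels were exchanged, every direction in this comparison would turn. Between single organoids of Set 1 (passage 11) and Set 3 (passage 3), which also differ in mouse, genes went either way. Aqp1 (log2 fold-change 1.73 in bulk, 1.68 in single organoids) and Sox4 (-1.44 and -2.05) kept the bulk direction. Ambp (-3.74 and 1.47) and the median of the cell cycle genes (1.40 and -0.37) did not. Among the 7 factors tested, Cebpb and Onecut1 were lower at passage 11 and none was higher, against 20.7% of all 13738 genes called (10.5% higher and 10.2% lower). This fit did not pair the samples of a set. With the set as a replicate block, Cebpa was also called lower, and calls over all genes went from 2849 to 3141. At an unadjusted P-value below 0.05 there were 4, against 33.7% of all genes. Values of 3 factors did not overlap between passages (Hnf4a, Cebpb and Onecut1), compared with 39.5% of all genes. The median log2 fold-change of the 7 was -0.44, and that of all genes -0.05.

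Cebpb, which drives the acute phase response, was at 885, 916 and 824 CPM in Sets 1, 3 and 4 at passage 4 and at 657, 554 and 517 CPM at passage 11. Each set was lower at passage 11, with ratios of 0.742, 0.605 and 0.628. The log2 fold-change was -0.60 ± 0.14 (SE, n = 3 per group, adjusted P-value 0.0108 in edgeR). Leaving out Set 3 at passage 11 lost the call (0.0622) with the size nearly unchanged at -0.57. Of 15 acute phase and inflammatory genes tested, 6 were lower and none was higher (median -1.44). They included Steap4 (2.48 CPM at passage 11, 14.6 at passage 4), Atf3 (9.51 and 50.3) and Cxcl5 (191 and 646).

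Onecut1 fell from 1.81, 3.83 and 2.81 CPM in Sets 1, 3 and 4 to 0.224, 0.794 and 1.27 CPM. These values come from 7, 20 and 16 counts at passage 4 and 1, 4 and 2 counts at passage 11. The log2 fold-change of -2.11 ± 0.58 (SE, n = 3 per group) had an adjusted P-value of 0.0211 in edgeR. It was lost with technical replicate 2 alone (0.133) and without Set 3 (0.0945) or Set 4 (0.0505) at passage 4 or Set 1 (0.0931) or Set 3 (0.0615) at passage 11. With a minimum count of 10 or thinned counts the gene was not tested, and DESeq2 gave it no adjusted P-value.

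Hnf4a was at 37.8, 40.6 and 47.3 CPM at passage 4 and 49.7, 65.7 and 52.7 CPM at passage 11. Each set was higher at passage 11, by ratios of 1.32, 1.62 and 1.12. The log2 fold-change of 0.42 ± 0.16 SE was not called (adjusted P-value 0.0774 in edgeR). Cebpa, a regulator of hepatocyte metabolism, was lower at passage 11 in each set, with 11.4, 18.4 and 13 CPM at passage 4 and 7.62, 11.7 and 5.08 CPM at passage 11, although the groups overlapped and Set 4 at passage 11 rests on 8 counts. With a log2 fold-change of -0.72 ± 0.29 SE it was not called either (0.0952), but it was called with the set as a replicate block, which compares each mouse with itself (-0.77, adjusted P-value 0.0379 in edgeR). It was also called without Set 3 at passage 11 (0.0475) and with the filter reduced to 1 count (0.0405).

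The 3 FOXA genes were not called. Foxa1 had 15.5, 20.3 and 18.1 CPM at passage 4 and 17.9, 22.04 and 22.2 CPM at passage 11. Foxa2 had 32.4, 33.3 and 35.8 CPM at passage 4 and 32.7, 32.4 and 39.4 CPM at passage 11, a log2 fold-change of 0.02 ± 0.16 SE. Foxa3 had 13.7, 18.4 and 13.7 CPM against 10.1, 10.5 and 14.6 CPM, so that it was lower in Sets 1 and 3 and not in Set 4. Nr5a2 had 5, 1 and 1 counts at passage 4 and none in any set at passage 11, and Prox1 had 2, 2 and 6 counts against 1, 0 and 1.

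Of 28 other liver transcription factors and nuclear receptors tested, 1 rose and 5 fell from passage 4 to passage 11 (median -0.29). Cebpg, a partner of the C/EBP proteins, had 48.4 CPM at passage 11 and 102 at passage 4, and the glucocorticoid receptor gene Nr3c1 had 7.88 and 13.9. Among 15 hepatocyte products, Fah was higher (7.65 and 3.60 CPM) and Ambp lower (14.5 and 195 CPM). Scarb1 was higher as 1 of 3 bile acid and NR5A2-linked genes (51.1 and 36 CPM). Ductal genes gave 2 higher and 2 lower of 21, Cd14 was lower as 1 of 2 macrophage markers (468 and 1038 CPM), none of 3 endothelial markers was called, and no mesenchymal marker was tested. Cell cycle genes were higher at passage 11 for 17 of 20 (median 1.40), and their part in the differences of Cebpb and Onecut1 was not tested.

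The third comparison asks how far factors differ between sets and between organoids of 1 culture. An F-test over the 4 sets called 5 of 9 factors, against 34.2% of 13927 genes tested: Hnf4a (adjusted P-value 0.00714 in edgeR), Foxa1 (0.0190), Foxa2 (0.0174), Cebpb (0.00314) and Prox1 (5.18e-05). Onecut1 (0.0569), Nr5a2 (0.0704), Cebpa (0.595) and Foxa3 (0.642) were not called. Onecut1 was called with RLE scaling (0.0487), a minimum count of 10 (0.0481), DESeq2 (0.0337) and all 42 organoids (0.0459). It was also called without organoid 3 of Set 1, 2 of Set 2, 5 of Set 3 or 11 of Set 4 (0.0310 to 0.0396). Nr5a2 was called without organoid 4 of Set 1, 4 of Set 2, 1 of Set 3 or 15 of Set 4 (0.0197 to 0.0485). The F-test call of Hnf4a was lost with thinned counts (0.103) and that of Foxa1 with organoid numbers as a replicate block (0.132). Foxa2 lost its call with the filter reduced to 1 count (0.0560), the block (0.0909) and all 42 organoids (0.0922). Cebpb kept its call under all 44 alternatives, and Prox1 under the 42 that gave it an adjusted P-value. All pairs of sets overlapped for all 9 factors, where 1.11% (Sets 1 and 2), 3.70% (1 and 3), 1.07% (1 and 4), 0.553% (2 and 3), 0.201% (2 and 4) and 2.07% (3 and 4) of genes did not. Over the 6 pairs of sets, 12 of 54 tests were called, compared with 11.9% of the tests of all genes, and the comparisons of Set 1 with each other set share the organoids of Set 1.

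Hnf4a ranged from 15.5 to 46.0 CPM in Set 1 with a median of 38.5 CPM. The medians were 22.7 CPM in Set 2 (17.3 to 34.0), 28.2 CPM in Set 3 (22.6 to 31.7) and 25.4 CPM in Set 4 (17.8 to 29.8). In Set 1, 6 of 8 organoids had at least 34.7 CPM, and organoids 7 and 8, which had the smallest totals of the set and 20 and 29 counts of Hnf4a, were at 15.5 and 21.8 CPM. Hnf4a was higher in Set 1 than in Set 2 (log2 fold-change 0.64 ± 0.16 SE, adjusted P-value 0.00603 in edgeR, 14.2% of genes called) and Set 4 (0.54 ± 0.15, 0.0150, 19.9%). Against Set 3 the difference of 0.36 ± 0.19 was not called (0.237, 9.44%). Among the alternatives, both calls were lost with thinned counts (0.176 and 0.0578).

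Cebpb had its lowest median in Set 1, 47.0 CPM (37.6 to 75.9), and its highest in Set 3, 133 CPM (58.1 to 141). Set 2 had a median of 80.9 CPM (23.3 to 138) and Set 4 one of 79.7 CPM (57.8 to 107). It was lower in Set 1 than in Set 3 (log2 fold-change -1.27 ± 0.27 SE, adjusted P-value 0.00125 in edgeR) and Set 4 (-0.75 ± 0.23, 0.0249), and not called against Set 2 (-0.58 ± 0.23, 0.100). The call against Set 4 was lost without organoid 3 of Set 1 (0.0523), with organoid numbers as a replicate block (0.182) or with all 42 organoids (0.0661). The difference from Set 2 was called without organoid 6 of Set 1 or without any 1 of organoids 2, 5 and 6 of Set 2 (0.0334 to 0.0468). Between Sets 2 and 3 the difference was not called (-0.69 ± 0.26, 0.0701). It was called with limma-voom (0.0470), with thinned counts (0.0258), and without organoid 11 of Set 2 (0.0176) or organoid 3 of Set 3 (0.0278). Acute phase and inflammatory genes were lower in Set 1 than in Set 3 for 7 of 15 and higher for none, whereas against Set 4 1 was lower and 2 were higher (median log2 fold-change 0.02), and against Set 2 5 were lower and 1 was higher.

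Onecut1 had a median of 13.01 CPM in Set 1 (7.55 to 18.9), 17.9 CPM in Set 2 (6.92 to 28.2), 21.0 CPM in Set 3 (14.8 to 31.4) and 18.7 CPM in Set 4 (8.88 to 30.8). Of the 6 pairs of sets, Set 1 and Set 3 alone gave a call (log2 fold-change -0.79 ± 0.25 SE, adjusted P-value 0.0325 in edgeR). It was lost with thinned counts (0.116), with the filter reduced to 1 count (0.0575), and without organoid 2 or 4 of Set 1 or 1 or 4 of Set 3 (0.0510 to 0.114).

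Among the FOXA genes, Foxa1 had medians of 19.4, 11.2, 16.9 and 12.2 CPM in Sets 1 to 4. It was higher in Set 1 than in Set 4 (log2 fold-change 0.81 ± 0.25 SE, adjusted P-value 0.0297 in edgeR). Set 4 was spread most, from 1.17 CPM in organoid 5, where 3 counts were found among 2611449, to 19.3 CPM in organoid 3. The call was lost without organoid 1 or 3 of Set 1 or 13 or 15 of Set 4 (0.0523 to 0.0705). It was also lost with organoid numbers as a replicate block (0.138) and with all 42 organoids (0.0537). Set 1 was also called higher than Set 2 without organoid 5 of Set 4 (0.0405) and in a fit of only these sets (0.0219). Set 3 was called higher than Set 4 without organoid 3 or 14 of Set 4 (0.0485 and 0.0499) and with limma-voom (0.0363). Foxa2 had medians of 32.1, 24.9, 23.1 and 35.8 CPM, and Set 4 was higher than Set 2 (Set 2 minus Set 4, -0.44 ± 0.14 SE, adjusted P-value 0.0316 in edgeR, 12.3% of genes called) and Set 3 (-0.53 ± 0.17, 0.0397, 11.5%). The first was lost under 10 alternatives, among them without organoid 3, 9 or 10 of Set 2 or 1, 13 or 15 of Set 4 (0.0502 to 0.0582). The second was lost under 11, among them without organoid 1, 3, 4 or 6 of Set 3 or 1, 2, 5 or 13 of Set 4 (0.0526 to 0.0882). Foxa3, called higher in domes than in suspension in the main fit, had medians of 20.8, 16.2, 16.3 and 16.6 CPM. Cebpa had medians of 8.45, 8.60, 8.12 and 6.00 CPM, and no pair of sets was called for either gene. Between Sets 2 and 3, 0 factors were called in edgeR (3.84% of genes), and 3 had an unadjusted P-value below 0.05 (12.9% of genes).

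**Figure D2:**
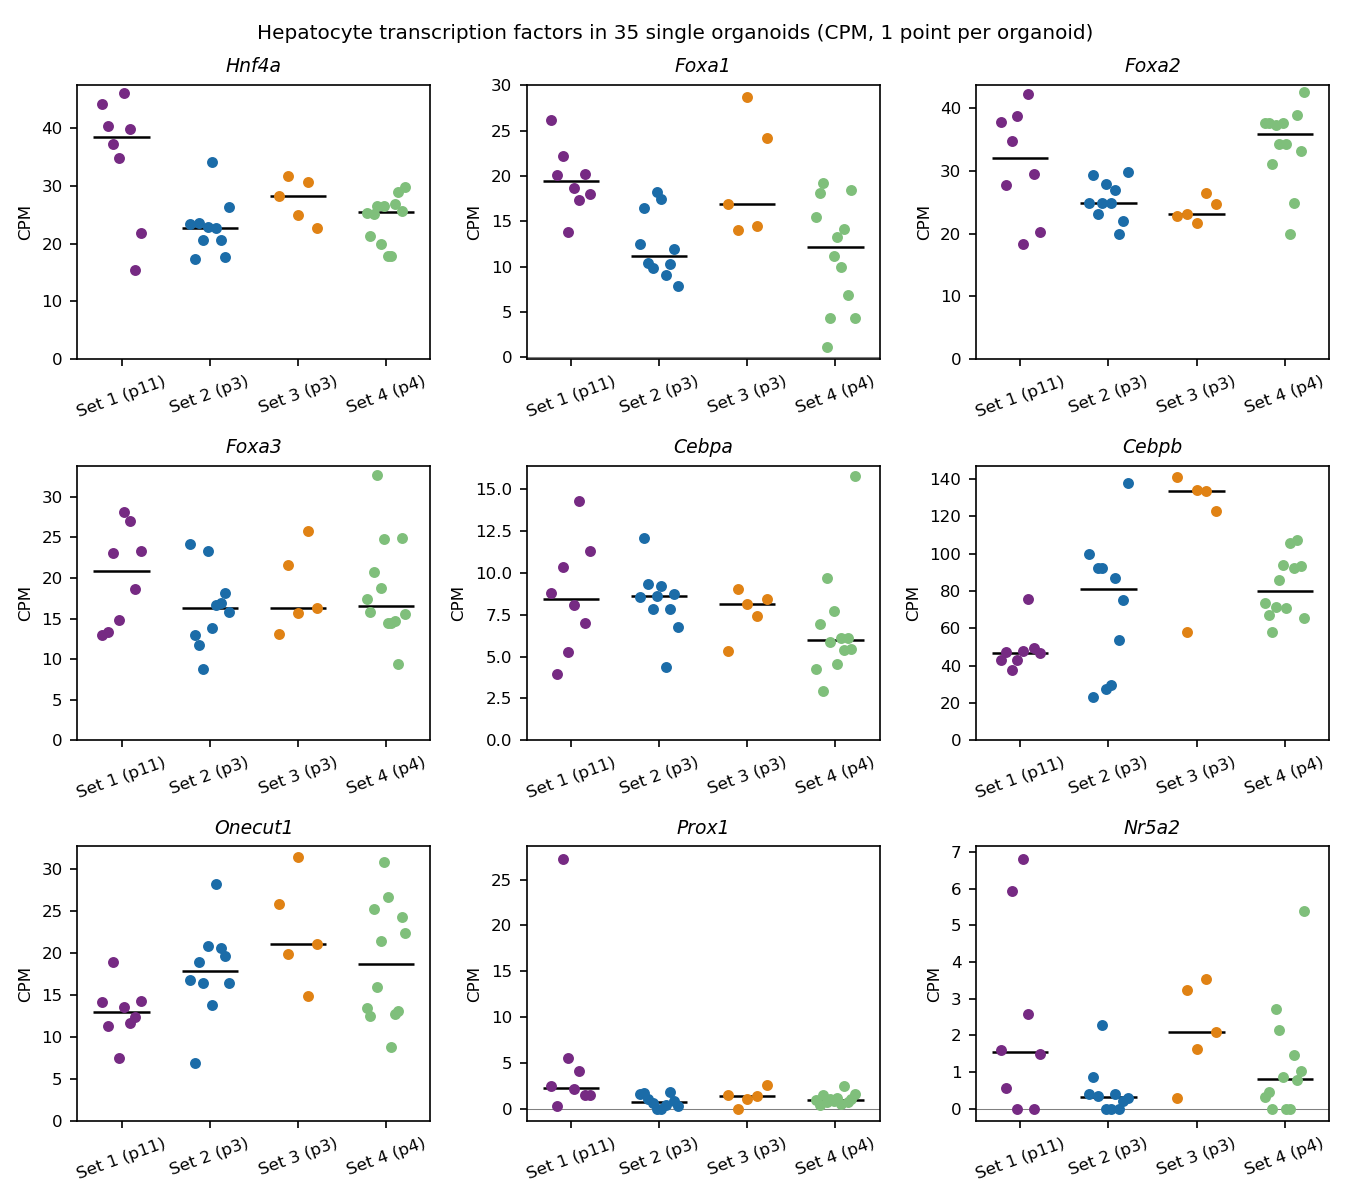
Level of each factor (vertical axis, CPM) in the 35 single organoids, 1 point per organoid in order of its number, by set with its passage (p) and a bar at the median. Hnf4a is highest and Cebpb lowest in the median of Set 1, Foxa1 reaches 1.17 CPM in Set 4, and the Prox1 level of 1 organoid of Set 1 (27.3 CPM) lies far above all others.

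Prox1, a homeobox factor of hepatoblasts, was found at 0.283 to 27.3 CPM in Set 1, 0 to 1.81 CPM in Set 2, 0 to 2.63 CPM in Set 3 and 0.464 to 2.44 CPM in Set 4. Organoid 3 of Set 1 alone held 124 of 200 counts in the set, and the other 7 had 1 to 25 counts. The differences of Set 1 from Sets 2 (log2 fold-change 2.85 ± 0.55 SE, adjusted P-value 0.000415 in edgeR), 3 (2.21 ± 0.65, 0.0210) and 4 (2.44 ± 0.48, 0.000567) were called. Without that organoid, these log2 fold-changes were 1.69, 1.05 and 1.28. The call against Set 3 was lost under 5 alternatives, among them without that organoid (0.195) and without organoid 3 of Set 3 (0.0662). With thinned counts Prox1 did not pass the filter, so none of these calls could be checked at equal depth. Of 4 endothelial markers tested, Lyve1, a receptor of lymphatic and sinusoidal endothelium, was also higher in Set 1 than in Set 2 (1.68 and 0.349 CPM, adjusted P-value 0.00295 in edgeR) and Set 4 (0.474 CPM, 0.0119). Flt1 was lower in Set 1 than in Set 2 (0.742 and 8.22 CPM). No count of Cdh5, Kdr and Clec4g was listed in any organoid, and the part of endothelial cells in the Prox1 difference was not tested. Nr5a2 reached 6.81 CPM in Set 1, 2.29 CPM in Set 2, 3.53 CPM in Set 3 and 5.39 CPM in Set 4, and every set except Set 3 had organoids without a count. It was called higher in Set 1 than in Set 2 (2.16 ± 0.71, 0.0395), a call lost under 16 alternatives, among them without organoid 3 or 5 of Set 1 or any 1 of organoids 1, 3, 5, 6, 7, 9, 10 and 11 of Set 2 (0.0512 to 0.121). Between Sets 2 and 3 it was called without organoid 4 of Set 2 (0.0368).

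**Figure D3:**
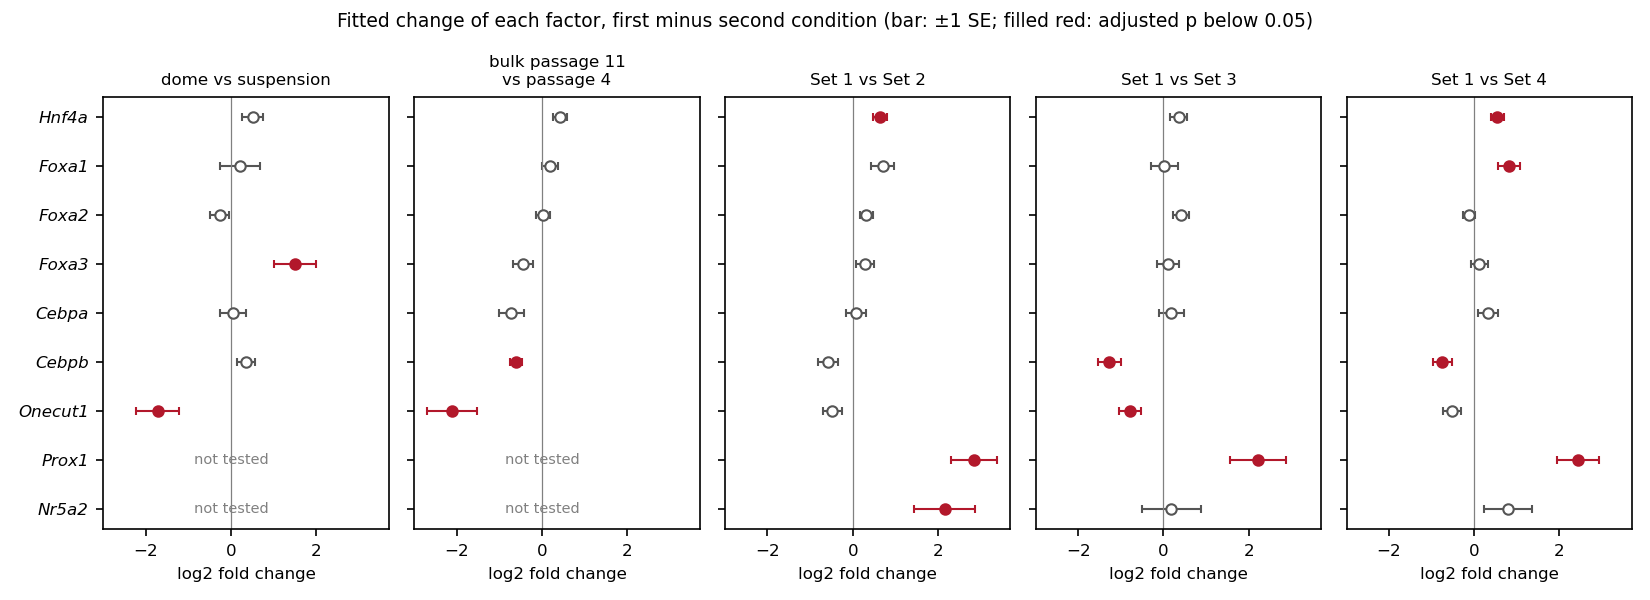
Fitted log2 fold-changes (horizontal axis) of the 9 factors in 5 comparisons, as first minus second condition, with bars of ± 1 SE and filled red points where the adjusted P-value passed 0.05. The 3 comparisons with Set 1 share its organoids. Onecut1 lies left of 0 in all 5 panels and is called in 3, and Hnf4a lies right of 0 in all 5 and is called in 2.

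Among 26 other liver transcription factors and nuclear receptors tested, 15 differed between the 4 sets in the F-test. Tbx3, a T-box factor of hepatoblast growth, was at 80.0 CPM in Set 1 and 11.1, 7.69 and 10.8 CPM in Sets 2 to 4, with fitted log2 fold-changes of 2.94, 3.36 and 2.98. Nr1h4, which encodes the bile acid receptor FXR, had 6.21, 5.82 and 4.89 CPM in Sets 1 to 3 and 2.13 CPM in Set 4, below each of the others (1.62, 1.48 and 1.21). Of 15 hepatocyte products, 12 differed between sets, and 6, 5 and 7 were higher in Set 1 than in Sets 2, 3 and 4, with none lower. Apob was at 33.3 CPM in Set 1 and 3.56, 9.50 and 2.74 CPM in Sets 2 to 4, and Fgb at 27.9 CPM and 4.40, 4.30 and 2.58 CPM. The F-test further called 1 of 2 bile acid and NR5A2-linked genes, 10 of 21 ductal genes, 11 of 15 acute phase and inflammatory genes, 15 of 20 cell cycle genes, 1 of 3 macrophage and 2 of 4 endothelial markers. No mesenchymal marker was tested. Cell cycle genes were lower in Set 1 for 10, 2 and 15 of 20 against Sets 2, 3 and 4 and higher for none, and their part in the differences of the factors was not tested.

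The spread between organoids of a set differed among the 9 factors. The biological coefficient of variation, the spread beyond counting noise estimated by edgeR, was 0.208 for Hnf4a and 0.200 for Foxa2, below the medians of 0.257 and 0.256 over genes within 0.5 log2 units of their level. It was 0.276 for Onecut1, 0.284 for Foxa3, 0.303 for Cebpa, 0.331 for Cebpb and 0.357 for Foxa1, all above the medians of genes of like level (0.254 to 0.270). Prox1 (0.699) and Nr5a2 (0.882) had the highest values, at levels where the median gene had 0.338 and 0.362. For Foxa2 in Set 3, the levels spanned 21.7 to 26.5 CPM and varied less than counting noise, with a chi-square of 0.364 per degree of freedom, a ratio of 1 being counting noise alone. Cebpb exceeded it in all sets, with ratios of 13.1, 36.1, 27.6 and 10.5 in Sets 1 to 4. For Prox1 the ratio was 54.1 in Set 1, where 1 organoid held 124 of 200 counts. In Sets 2 to 4 it was 1.06, 1.64 and 0.648, so the high pooled value of Prox1 stems from Set 1. Nr5a2 had ratios of 9.18, 2.52, 2.45 and 6.79 in Sets 1 to 4.

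In Set 2, organoids 2, 5 and 6 had 23.3, 27.4 and 29.4 CPM of Cebpb, and organoid 9 had 53.8 CPM. The other 6 had 74.9 to 138 CPM. These 4 organoids also had the lowest total counts of the set, 1180937 to 1772082, against at least 2335111 in the others. Within Set 2, Cebpb had r = 0.815 and rho = 0.709 with the log2 total count, while r was 0.00627 in Set 1 and 0.0130 in Set 4. Over all 35 organoids, r was 0.288 and rho 0.332 (adjusted permutation P-values 0.382 and 0.448). In the 7 organoids that were not kept, with totals of 666660 to 1152914, Cebpb was at 7.50 to 71.5 CPM when scaled over all 42.

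Across organoids, levels were compared as log2 CPM centred within each set, for 72 relations: 36 pairs of factors, and each factor with the mean of hepatocyte products, of ductal genes and of cell cycle genes and with the log2 total count. After adjustment, none was called by Pearson's r or Spearman's rho. At an unadjusted permutation P-value below 0.05 there were 9 by r and 7 by rho. Nearest to a call was Cebpa with Nr5a2, with r = 0.603 (permutation P = 0.00074, adjusted 0.0533) and rho = 0.543 (permutation P = 0.00247, adjusted 0.0889). Without the 2 organoids farthest from the median of Cebpa, r was 0.485. Within sets, r was 0.586 in Set 1, 0.0375 in Set 2 and 0.793 in Set 4. With counts thinned to the smallest total, r was only 0.249 and rho 0.266 (adjusted permutation P-values 0.786 and 0.887). Nr5a2 had 3 or fewer counts in 23 of the 35 organoids. Cebpa with hepatocyte products had r = 0.520 and rho = 0.403 (adjusted permutation P-values 0.0788 and 0.294), with r at 0.515 without the 2 farthest organoids. Cebpb with ductal genes had r = 0.541 and rho = 0.565 (adjusted permutation P-values 0.244 and 0.0889), and r at 0.483 without the 2 farthest. With thinned counts, r was 0.367 for Cebpa with hepatocyte products and 0.488 for Cebpb with ductal genes. With the log2 total count, Hnf4a had r = 0.445 and rho = 0.420 (adjusted permutation P-values 0.244 and 0.294) and Foxa2 r = 0.470 and rho = 0.470 (0.244 and 0.242). Within sets, these r were 0.755 and 0.700 in Set 1, -0.248 and -0.0842 in Set 2 and 0.381 and 0.435 in Set 4.

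Each factor was then compared with 6485 genes (average log2 CPM 4 or higher) by Spearman's rho of the same centred values, as a description of 35 organoids whose genes share library and depth. The highest value of all belonged to Cebpb with Eif4a1, the RNA helicase of translation initiation (rho = 0.868, with 0.714 in Set 1, 0.952 in Set 2 and 0.741 in Set 4), followed by Otub1 (0.743) and Ppp4c (0.738). Foxa2 was most like Atp6ap2, a subunit linked to the vacuolar proton pump (0.763), Aldh2 (0.718) and Rps4l (0.716). Onecut1 was most like Gnai1 (0.710), Eif4ebp2 (0.677) and Cetn2 (0.655). For Foxa1 the nearest genes were Lgals2 (0.686), Gata5 (0.627), an endoderm factor, and Arl4a (0.623), where Gata5 had -0.548 within Set 1, and for Hnf4a they were Oard1 (0.654), Tsnax (0.632) and Ube2z (0.610). Foxa3 ranked highest with Zfhx3 (0.613), Cebpa with 2210408F21Rik (0.644), Nr5a2 with Hebp2 (0.539) and Prox1 with Exoc3l4 (0.498). Hebp2 had -0.423 with Nr5a2 within Set 2 and 0.900 within Set 4. Nr5a2 and Prox1 had 3 or fewer counts in 23 and 21 of the 35 organoids. Foxa1, Cebpa, Prox1 and Nr5a2 lay below an average log2 CPM of 4 and so were not among the genes compared.

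**Figure D4:**
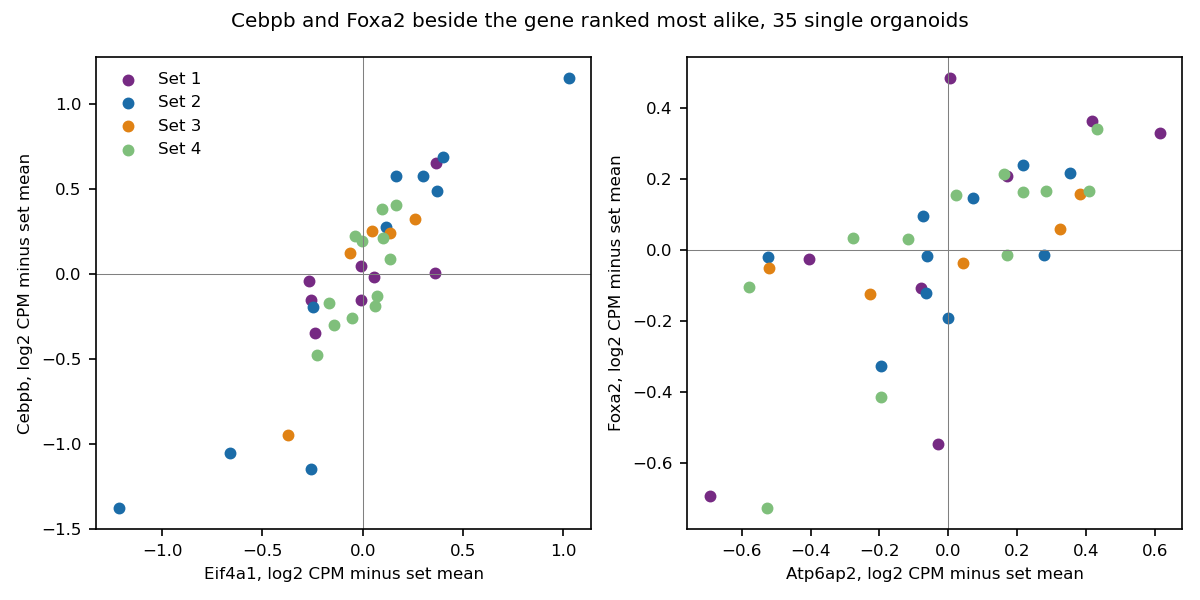
Set-centred log2 CPM of Cebpb against Eif4a1 (left) and Foxa2 against Atp6ap2 (right), 1 point per organoid, coloured by set. Both genes on the horizontal axes were picked as the most alike of 6485 (rho = 0.868 and 0.763), and the organoids of Set 2 span the widest range of Cebpb.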

How the data were processed

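Total RNA of bulk cultures and poly(A) RNA of single organoids were read from the 3′ end with molecular identifiers. The authors aligned reads with STAR and counted genes with featureCounts on mm10 (GRCm38), and deposited 3 tables of counts per Ensembl gene without normalization. Submitters' notes list SAMtools 1.9, R 3.6.3, edgeR 3.28.1 and limma 3.42.2. Whether a count is a molecule or a read was not stated.

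Technical replicates were summed. Genes were filtered (filterByExpr, minimum count 3), scaled by TMM and tested with the robust quasi-likelihood F-test of edgeR 4.0.16 in R 4.3.3, each table with 1 fit over its groups. P-values were adjusted by Benjamini-Hochberg over all genes tested (for pairs of sets, over all pairs together), with a threshold of 0.05. Log2 CPM used a prior count of 2, and correlations 100000 permutations. Alternatives used limma-voom 3.58.1, DESeq2 1.42.0, RLE scaling, other filters, thinning, a replicate block and leaving samples out. The edgeR fits and a set-centred rank correlation with its permutation test were tried on simulated data, and the other steps were not. Replicates differed by more than counting noise, with a smallest chi-square of 2.47 per degree of freedom. Same-numbered domes and suspension cultures deviated together (residual r = 0.153, 0.165 and 0.191), and bulk sets share a mouse, so both were treated as pairs in the block.

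The 9 genes and all lists were chosen with earlier results of these data known. Named list genes are at most 4 called genes per list and comparison with large fold-changes, and for likeness 3 genes per factor.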

Additional observations from a re-analysis of the deposited data

Results flagged for a closer look

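Dixon's test compares the gap between an extreme organoid and its neighbour with the range of its set, here in log2 CPM. Of 27 combinations of a factor and a set of 4 to 10 single organoids, it flagged 3. Its nominal rate of 1 in 20 holds for normal values of equal precision, and depth differed between organoids. Whether 3 flags exceed chance was not tested. Cebpb was at 75.9 CPM (351 counts) in organoid 6 of Set 1, compared with 37.6 to 49.6 CPM in the other organoids. Cebpb was at 58.1 CPM (161 counts) in organoid 3 of Set 3, compared with 123 to 141 CPM. Onecut1 was at 6.92 CPM (8 counts) in organoid 2 of Set 2, compared with 13.8 to 28.2 CPM.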

How the results depend on the processing

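Between domes and suspension, 2 factors were called, and 1 with RLE scaling, limma-voom or thinned counts. Leaving out 1 library gave 0 to 2, with 0 without suspension 1 and without suspension 2. Between passages, 2 were called, and 1 with a minimum count of 10, DESeq2, thinned counts (under these 3 Onecut1 had no adjusted P-value) or technical replicate 2 alone, and 1 to 2 without 1 sample. Over the 4 sets, 5 were called, 3 with thinned counts and 3 with organoid numbers as a replicate block, and 5 to 6 without 1 organoid. With thinned counts Prox1 did not pass the filter. Its calls over the 4 sets and in pairs of sets were therefore untested there, not lost. Over pairs of sets, 12 calls became 7 with the filter at 1 count, 5 with thinned counts, 7 with the replicate block, 7 with all 42 organoids and 8 to 13 without 1 organoid. Leaving out organoids of Sets 1, 2 and 4 was added after seeing the data. No fold-change of a called factor changed sign. Organoid numbers do not pair samples (residual r between -0.366 and 0.414, median 0.0564). The block by mouse or pool changed the call of Cebpa between passages and no other call there or between domes and suspension.

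Of the 13738 genes tested between passages, 2849 were called, but 1845 with thinned counts and 1787 with technical replicate 1 alone. The F-test over sets called 4769 genes, but 2997 with all 42 organoids, 2985 with the block and 3049 with thinned counts. With thinned counts, calls fell from 1972 to 1145 (Sets 1 and 2), 1315 to 731 (1 and 3), 2772 to 1652 (1 and 4), 1711 to 1042 (2 and 4) and 1602 to 958 (3 and 4). With the block there were 1585 (1 and 4), 884 (2 and 4) and 725 (3 and 4), and with all 42 organoids 253 (2 and 3), 958 (2 and 4) and 708 (3 and 4). Sets 2 and 3 gave 535 calls, but 165 when adjusted within that pair and 47 when fitted alone, and Sets 3 and 4 gave 2834 when fitted alone.

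Depth limits Onecut1 in the bulk tables and Prox1 and Nr5a2 in all tables, where single counts carry the values, and 3 cultures per group limit all bulk comparisons.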

Other observations

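Some factors lay at different levels in the 3 tables, which were scaled separately and not tested against each other, and RNA was extracted in different ways. Onecut1 was at 0.224 to 4.62 CPM in the bulk tables and at 6.92 to 31.4 CPM in single organoids. Cebpb was at 517 to 916 CPM in the bulk passages, at 114 to 183 CPM in domes and suspension cultures and at 23.3 to 141 CPM in single organoids. Zbtb20, another liver transcription factor, had group means of 5.38 to 45.6 CPM in the bulk tables, compared with 130 CPM in Set 1 and 332 CPM in Set 2.

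The direction of the cell cycle list differed between the experiments that involve passage 11. In bulk, its summed level was 491 to 572 CPM at passage 4 and 1259 to 1838 CPM at passage 11. In single organoids it was 737 to 2266 CPM in Set 1 at passage 11 and 1353 to 2954 CPM in the other sets, at passages 3 and 4. Set 2 was not among the bulk cultures, and the difference between the experiments was not tested.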
